A study of Mus musculus with 6 samples.

Results

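The comparison set 2 micromass cultures side by side, Ezh2-deficient and wildtype chondrocytes at day 7 of culture, 2 of the 6 libraries of the series. The comparison covers all 23358 gene entries of the deposited count table. Each genotype gave 1 library a day, at days 3, 7 and 14. The cells were immature chondrocytes of the femoral head, the femoral condyles and the tibial plateau of mice at post-natal day 5, of a strain labelled C57BL/6 - mix. They were kept in DMEM with 2% FBS, and for micromass culture, in which a dense drop of cells lays down cartilage matrix, the medium of every group also held insulin, transferrin and selenium, 0.05 mg/mL ascorbic acid and 10 mM β-glycerol phosphate, a phosphate source for mineralisation. The library titles name the Ezh2-deficient cells as a conditional knockout (Ezh2_cKO). The Cre driver, the deleted part of the gene, the sex of the mice and whether animals were pooled are not given in the sources used here. With 1 library a side no difference at day 7 can be tested, and the intervals below cover counting error only.

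Ezh2 is the methyltransferase of Polycomb repressive complex 2, which places methyl groups on lysine 27 of histone H3 and so helps to keep developmental genes silent. In growth cartilage, chondrocytes divide, lay down a matrix rich in collagen II and aggrecan, enlarge, and are then replaced by bone. Polycomb repression is one of the systems known to restrain genes of later or other fates in such cells. Day 7 lies between the early cartilage stage and the mineralising stage of the culture.

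Levels are given in CPM, the counts brought to a common library size after TMM scaling. The log2 ratios are Ezh2-deficient over wildtype, with a prior count of 2, and are given with an exact 95% counting interval. The day 7 libraries held 71953802 (Ezh2-deficient) and 65461350 (wildtype) counts, at which 3 fragments, or 6 counts, correspond to 0.0763 and 0.0851 CPM. Ezh2 itself (chromosome 6, 47530274 to 47595030, mm10) measured 14.7, 23.002 and 17.6 CPM in Ezh2-deficient libraries at days 3, 7 and 14, against 24.7, 40.2 and 27.9 CPM in wildtype libraries. At day 7 the log2 ratio was -0.80 (-0.93 to -0.68). Ezh2 RNA was lower in every Ezh2-deficient library but not absent. Reads from outside a deleted part do not check the label. The other 10 genes of the complex and its partners lay between -0.46 (Phf19) and 0.18 (Jarid2), with Eed at -0.11 and Suz12 at -0.07.

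Both day 7 libraries carried the RNA of cartilage. On the per-length scale, Col2a1 stood at 5750 RPKM in Ezh2-deficient and 8080 RPKM in wildtype cells, and Acan at 344 and 570 RPKM, where RPKM is the deposited level per kilobase. RNA of other cells was present beside it. Sums are over all listed genes with an entry, also those under 1 CPM. The 24 macrophage genes summed to 2290 CPM in Ezh2-deficient and 2461 CPM in wildtype cells, the 20 adipocyte genes to 1470 and 886 CPM, and the 15 osteoclast genes to 423 and 486 CPM. The 14 smooth muscle genes summed to 1201 and 908 CPM, with Acta2 at 281 and 196 CPM, Cnn1 at 3.56 and 1.39 CPM and Myh11 under 0.5 CPM in both. Of osteoclast markers, Ctsk stood at 170 CPM in Ezh2-deficient and 204 CPM in wildtype cells and Acp5 at 12.8 and 8.31 CPM, with Calcr under 0.5 CPM. Of red-cell markers, Hba-a1 and Hbb-b1 had 0 counts in both, which allows up to the 3-fragment floor, while Alas2 stood at 0.94 CPM in Ezh2-deficient and 0.794 CPM in wildtype cells. Krt14 of keratinocytes had 0 counts in both, Myog of skeletal muscle was under 0.5 CPM, and Acta1 stood at 1.12 and 0.936 CPM. In such bulk RNA, fewer cells of a type and less RNA per cell cannot be told apart. Xist, transcribed from the inactive X chromosome of female cells, measured 677 CPM in Ezh2-deficient and 1130 CPM in wildtype cells at day 7, and the 4 Y-linked genes summed to 131 and 62.5 CPM. Both kinds of RNA were thus present in both libraries, as a mix of male and female cells would give. Xist was lower and the Y-linked sum higher in Ezh2-deficient cells on each of the 3 days, but the gaps differed between days. Xist measured 842 CPM in Ezh2-deficient and 1060 CPM in wildtype cells at day 3, and 513 and 1220 CPM at day 14. The Y-linked sums were 122 and 90.8 CPM at day 3 and 171 and 60.6 CPM at day 14. Comparisons of the day 7 ratios with the other days carry this difference too. The share of each sex among the source cells and the genotype cannot be told apart here.

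A gene was called when its higher library had at least 1 CPM, the libraries stood at least 2-fold apart and the counting interval excluded a ratio of 1. Of 13473 genes at 1 CPM or more, 338 were called higher (2.51%) and 227 lower (1.68%) in Ezh2-deficient cells at day 7. At day 3 the calls were 238 higher (1.81%) and 72 lower (0.548%), and at day 14 they were 348 higher (2.58%) and 448 lower (3.32%). Lower calls thus outnumbered higher ones at day 14, with the opposite balance at days 3 and 7. The balance of day 7 depended on the fold: at 1.5-fold 810 genes were called higher and 825 lower, and 50.4% of all ratios were below 0. The day pairs share no library. Across genes, the day 7 ratios went with those of day 14 (r = 0.578, Spearman's rho = 0.481) more closely than with those of day 3 (r = 0.361, rho = 0.249), as a description over genes, which are not independent replicates.

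**Figure D1:**
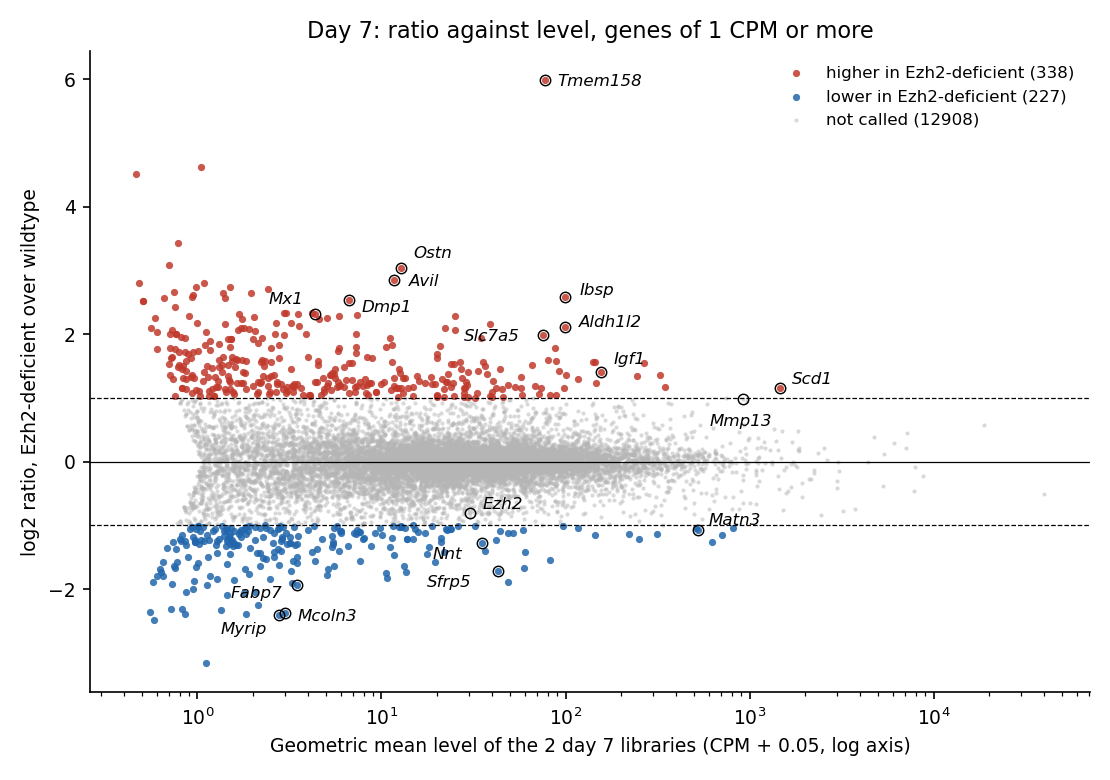
Log2 ratio of Ezh2-deficient over wildtype cells at day 7 (vertical axis) against the geometric mean of both levels in CPM (horizontal, log axis), 1 point per gene at 1 CPM or more. Red points are the 338 genes called higher and blue points the 227 called lower, dashed lines mark a 2-fold difference, and Tmem158 stands alone at a log2 ratio of 5.99.

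The gene farthest apart at 5 CPM or more was Tmem158 (chromosome 9, 123259057 to 123260789), which encodes a membrane protein first described in Ras-induced senescence. It measured 396, 613 and 547 CPM in Ezh2-deficient libraries at days 3, 7 and 14, against 661, 9.62 and 6.84 CPM in wildtype libraries. At day 7 this was a 63.6-fold difference, a log2 ratio of 5.99 (5.84 to 6.15). The Ezh2-deficient level was of the same order on the 3 days, while the wildtype libraries of days 7 and 14 were low and that of day 3 was high. At day 3 the ratio lay on the other side, at -0.74.

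Several of the next genes also had a wildtype level that was high at day 3 and lower later. Avil, which encodes the actin-severing protein advillin, measured 242, 31.4 and 32.8 CPM in Ezh2-deficient libraries on the 3 days, against 269.6, 4.31 and 2.74 CPM in wildtype libraries. Its ratio at day 7 was 2.86 (2.62 to 3.12) and at day 14 was 3.57. Both genotypes were lower at day 7 than at day 3, and wildtype was the lower by far. Ostn, which encodes the secreted peptide osteocrin, known from bone and muscle, measured 135.8, 36.2 and 12.4 CPM in Ezh2-deficient libraries, against 80.2, 4.40 and 2.20 CPM in wildtype libraries, a day 7 ratio of 3.03 (2.80 to 3.29). Ostn was higher at day 3 too (0.76). Dlg2, a scaffold protein of synapses, stood at 59.5, 9.30 and 6.46 CPM in Ezh2-deficient libraries and at 52.7, 1.82 and 3.46 CPM in wildtype libraries (2.34 at day 7). Here the gap was widest at day 7. Cyb5r2, a cytochrome b5 reductase whose entry overlaps Ppfibp2, and Trim66, a chromatin-reading protein of the TRIM family, showed the like, with day 7 ratios of 2.29 and 2.32, against 0.11 and 0.31 at day 3 and 0.97 and 1.46 at day 14. Of the remaining genes at the top, Miat, a long noncoding RNA (2.71), Cox8b, a subunit of cytochrome oxidase (2.34), Crabp1, which binds retinoic acid (2.25), and Lgi2, a secreted protein known from brain (2.24), were higher at day 7 from levels of 6.10 to 10.9 CPM in Ezh2-deficient cells.

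Over the wildtype time course, measured by the day 3 and day 14 libraries that the day 7 pair does not use, 80 of the 338 genes called higher (23.7%) were at least 2-fold lower at day 14 than at day 3, against 7.83% of all genes at 1 CPM or more. A larger number, 187 (55.3%), were at least 2-fold higher at day 14, against 17.6% of all genes. Of the 227 genes called lower, 51 (22.5%) were at least 2-fold lower and 86 (37.9%) at least 2-fold higher at day 14. Genes that differed between the genotypes at day 7 were thus mostly genes whose wildtype level moved over the culture, in either direction.

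**Figure D2:**
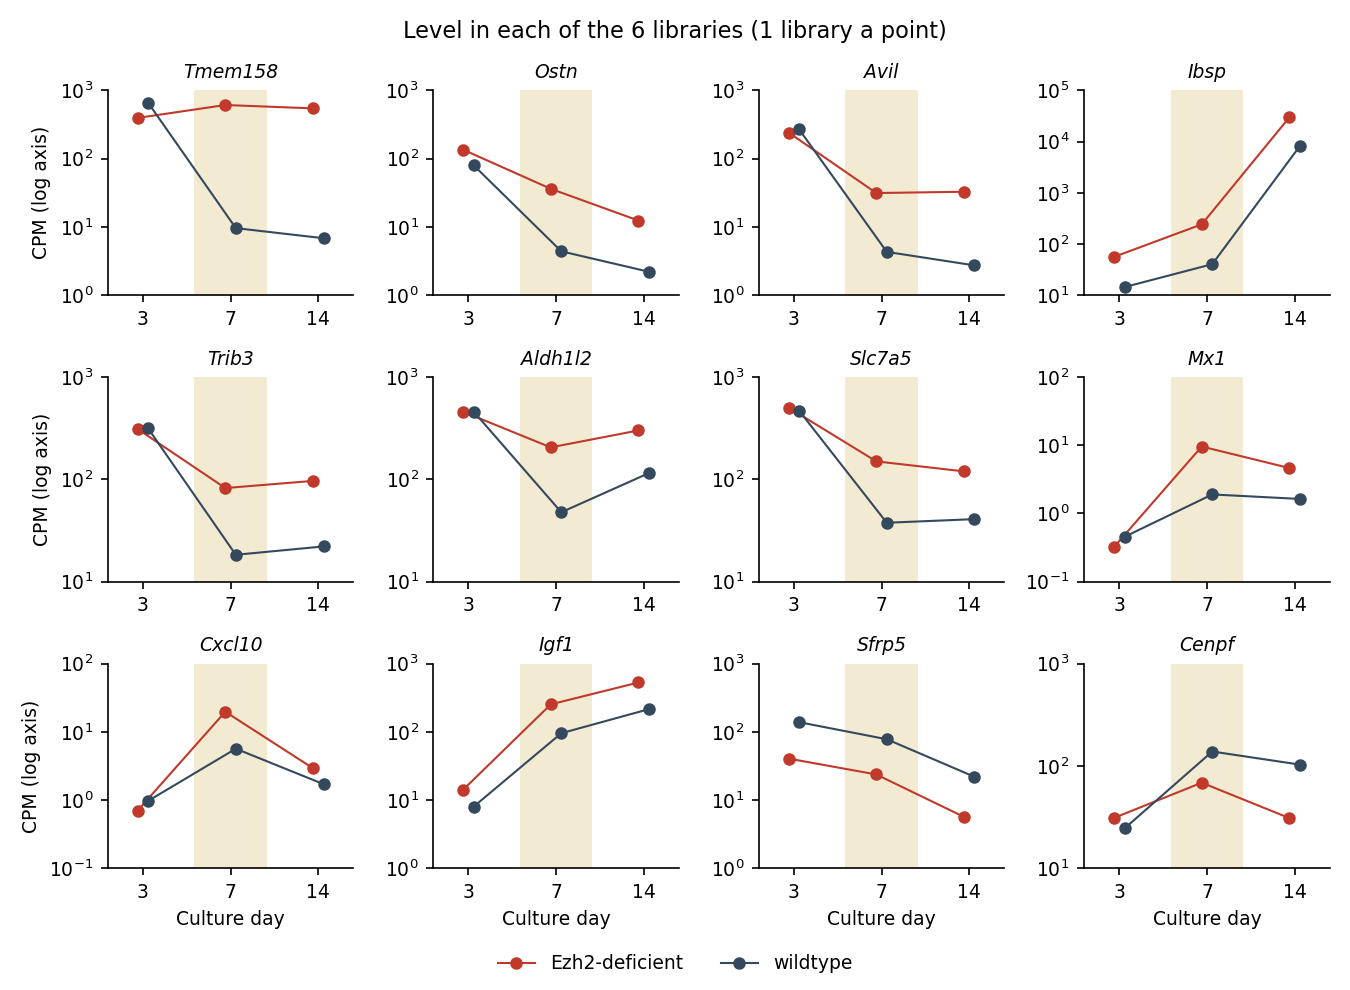
Level in CPM (log axis) of 12 genes in each of the 6 libraries by culture day, red for Ezh2-deficient and dark blue for wildtype, with day 7 shaded and 1 library a point. Avil, Trib3, Aldh1l2 and Slc7a5 are close together at day 3 and apart at day 7. Tmem158 is lower in Ezh2-deficient cells at day 3 and higher at day 7. Ibsp, Ostn and Sfrp5 are apart in 1 direction on every day. Mx1 and Cxcl10 are highest at day 7 in both genotypes.

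All lists here and below were written with earlier results of these data known, so their shares are descriptions and no support. The shares called stand beside 2.51% higher and 1.68% lower of all genes at 1 CPM or more at day 7. Of the lists with 10 or more measured genes, those of the amino acid stress response and of adipocytes had the largest share of called genes. The factor of the first, Atf4, is translated when amino acids run short or proteins misfold, and switches on genes that import and make amino acids, feed the one-carbon cycle and charge transfer RNAs. Of 35 measured genes 14 were called higher (40%, against 2.51% of all genes) and 0 lower (against 1.68%). Above 0 were 33 of the 35 ratios, against 49.6% of all genes. Their median ratio moved through -0.01, 0.79 and 0.82 on the 3 days, with 0, 14 and 12 genes called higher. Atf4 itself measured 321 CPM in Ezh2-deficient and 172 CPM in wildtype cells at day 7 (0.90), just short of the call.

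Trib3, a pseudokinase made in stressed cells, measured 310.4, 82.2 and 96.6 CPM in Ezh2-deficient libraries at days 3, 7 and 14, against 314, 18.3 and 22.1 CPM in wildtype libraries. Its ratio at day 7 was 2.16 (2.04 to 2.29). The genotypes were level at day 3, and at day 7 both libraries were lower than at day 3, wildtype the more so. Aldh1l2, the mitochondrial enzyme that makes NADPH from formyl-tetrahydrofolate, stood at 458, 205 and 301 CPM in Ezh2-deficient libraries and at 460.2, 47.7 and 115 CPM in wildtype libraries, a day 7 ratio of 2.11 (2.03 to 2.18). Slc7a5, a subunit of the carrier of large neutral amino acids, gave 503, 149.9 and 119.7 CPM in Ezh2-deficient libraries, against 469, 37.7 and 40.9 CPM in wildtype libraries (1.99, 1.91 to 2.08). Slc7a3, a carrier of arginine and lysine, and Chac1, which breaks down glutathione, had day 7 ratios of 2.06 and 2.10. Fgf21, a hormone of the starvation response, was the farthest apart at 2.27 (1.76 to 2.91) but low, at 4.37 CPM in Ezh2-deficient and 0.879 CPM in wildtype cells. The remaining 8 called higher were Cth, Nupr1, Asns, Atf5, Ddit3, Phgdh, Slc7a11 and Mthfd2, with ratios between 1.15 (Mthfd2) and 1.83 (Cth). The entries of Ddit3 and Atf5 overlap those of Mars and of Nup62. Atf3 (-0.20) and Ddit4 (-0.13) were the 2 genes below 0. The related list of endoplasmic reticulum chaperones, which other arms of the stress response control, had 0 of 27 genes called and a median of 0.17, with Hspa5, the main chaperone, at 0.38.

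Genes of this response are known to carry a C/EBP-ATF response element, to which Atf4 binds. The letters TGATGNAA were searched on both strands of the 300 bases around each transcript start (250 before it and 50 after) in RefSeq's GRCm38.p6 annotation. Of the 27 listed genes with such a window 10 held a match (37%), against 2.81% of the 9593 genes at 1 CPM or more with a window. Among the 226 genes called higher with a window, 21 held one (9.29%). The windows of Fgf21 (chr7:45615441-45615740, minus strand) and Trib3 (chr2:152344011-152344310, minus strand) are shown because these were the 2 listed genes with a match that stood farthest apart, with the match in capitals. The list holds genes known to belong to this response, so its share describes the list and not day 7. A match is a run of letters, and its use by the factor was not measured.
Fgf21: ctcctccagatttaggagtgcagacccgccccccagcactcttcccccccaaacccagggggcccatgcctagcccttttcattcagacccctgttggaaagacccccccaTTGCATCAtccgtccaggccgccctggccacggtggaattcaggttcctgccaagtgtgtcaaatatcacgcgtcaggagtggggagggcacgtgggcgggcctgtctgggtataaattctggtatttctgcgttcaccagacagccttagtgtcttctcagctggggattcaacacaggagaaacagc
Trib3: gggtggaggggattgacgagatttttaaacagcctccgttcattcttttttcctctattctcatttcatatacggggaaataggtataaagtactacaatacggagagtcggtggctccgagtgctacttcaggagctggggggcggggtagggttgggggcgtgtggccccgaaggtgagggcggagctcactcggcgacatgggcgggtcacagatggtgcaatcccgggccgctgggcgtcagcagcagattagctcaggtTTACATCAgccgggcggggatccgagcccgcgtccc

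Interferon-stimulated genes, which are switched on by interferon and by sensing of foreign or misplaced nucleic acid and which block viral replication, all had ratios above 0. Of 43 measured genes 11 were called higher (25.6%, against 2.51% of all genes) and 0 lower. In this list, chosen with earlier results known, 43 of 43 ratios were above 0, against 49.6% of all genes. On the 3 days the median was 0.06, 0.71 and 0.51. In 34 of the 43 the day 7 ratio was above 0 and farther from 0 than on both other days, against 15.7% of all genes. The group was called at 0 genes at day 3 and 7 genes at day 14. The group was low at day 3 in both genotypes. Over its 44 genes with an entry the sums were 452 CPM in Ezh2-deficient and 455 CPM in wildtype cells, against 2709 and 1722 CPM at day 7 and 1784 and 1363 CPM at day 14.

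Mx1, an antiviral GTPase, measured 0.323, 9.58 and 4.63 CPM in Ezh2-deficient libraries at days 3, 7 and 14, against 0.455, 1.901 and 1.63 CPM in wildtype libraries. Its day 7 ratio was 2.32 (1.96 to 2.73), the largest of the list. Cxcl10, a chemokine that attracts T cells and whose entry overlaps Art3, gave 0.699, 19.7 and 2.92 CPM in Ezh2-deficient libraries, against 0.971, 5.65 and 1.71 CPM in wildtype libraries (1.80, 1.58 to 2.03). Both genes were highest at day 7 in both genotypes. Isg15, a ubiquitin-like modifier, stood at 4.65, 91.4 and 46.5 CPM in Ezh2-deficient libraries and at 3.28, 36.3 and 19.6 CPM in wildtype libraries (1.33 at day 7). Mx2 (1.39), Rsad2 (1.27) and Oasl1 (1.19) also encode antiviral proteins, and the other genes called higher were Ifit1, Zbp1, Ifi44, Usp18 and Ifit3. Samd9l (0.13) and Oas3 (0.17) were the nearest to equal.

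The interferon-inducible GTPases, which guard against parasites and bacteria inside cells, behaved alike, with all 10 above 0, 2 called higher and a median of 0.70 at day 7, against 0.09 at day 3 and 0.53 at day 14. Iigp1 measured 44.7 CPM in Ezh2-deficient and 16.3 CPM in wildtype cells at day 7 (1.45), and Gbp3 40.7 and 19.4 CPM (1.07). Genes of antigen presentation, another group known to respond to interferon, were closer to equal. Of 20 genes 0 were called, 17 were above 0 and the median was 0.24, with Nlrc5, the activator of class I genes, at 0.78. Macrophages also express such genes, and their 24 markers summed to 2290 CPM in Ezh2-deficient and 2461 CPM in wildtype cells at day 7. The part of macrophages, or of their state, in the ratios of these genes was not tested. Of the 24 macrophage genes 16 were below 0 and the median was -0.17. Cd68 stood at 70.6 and 107.9 CPM, Emr1 at 90.4 and 113 CPM and Csf1r at 146 and 153 CPM in Ezh2-deficient and wildtype cells. Cd14, a co-receptor for bacterial lipid, was called higher (1.42) and Fcgr3, an antibody receptor, lower (-1.05).

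The interferon-stimulated response element, which the interferon-activated complex of Stat and Irf proteins binds, was searched in the same windows on both strands as a pair of GAAA runs with 2 free bases between them. It was found for 15 of 31 interferon-stimulated genes with a window (48.4%) and for 7 of 7 GTPases, against 3.61% of genes at 1 CPM or more and 12 of the 226 genes called higher (5.31%). The windows of Cxcl10 (chr5:92348840-92349139, minus strand) and Isg15 (chr4:156200769-156201068, minus strand) are shown as the 2 listed genes with a match and the largest ratios. Matches are in capitals, and Isg15 has 3 that overlap. Both lists hold genes known to answer to interferon, so their shares describe the lists and not day 7. The use of the matches was not measured.
Cxcl10: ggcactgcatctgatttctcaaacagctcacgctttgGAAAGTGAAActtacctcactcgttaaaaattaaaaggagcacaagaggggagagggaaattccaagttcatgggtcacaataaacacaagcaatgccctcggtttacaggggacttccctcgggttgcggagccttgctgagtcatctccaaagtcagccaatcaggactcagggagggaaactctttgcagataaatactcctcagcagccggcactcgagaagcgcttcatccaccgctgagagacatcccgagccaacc
Isg15: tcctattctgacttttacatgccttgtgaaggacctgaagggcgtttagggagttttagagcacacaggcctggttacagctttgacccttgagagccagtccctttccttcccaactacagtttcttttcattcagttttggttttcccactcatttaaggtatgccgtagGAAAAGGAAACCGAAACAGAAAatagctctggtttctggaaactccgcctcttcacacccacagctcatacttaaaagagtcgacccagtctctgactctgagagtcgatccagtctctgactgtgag

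Of 30 inflammatory mediators and complement genes 6 were called higher (20%, against 2.51% of all genes) and 0 lower at day 7. Above 0 were 24 and below it 6, with a median of 0.47, against 0.27 at day 3 and 0.07 at day 14. Serping1, the inhibitor of complement C1, measured 1.29, 55.4 and 106.6 CPM in Ezh2-deficient libraries on the 3 days, against 0.667, 11.4 and 40.0 CPM in wildtype libraries (2.28, 2.13 to 2.44, at day 7). It was higher in Ezh2-deficient cells on each day. Cxcl12, a chemokine of the marrow stroma, gave 30.3, 454 and 253 CPM in Ezh2-deficient libraries, against 14.6, 155.8 and 209 CPM in wildtype libraries (1.54 at day 7, 0.28 at day 14). Cxcl5, a neutrophil attractant, stood at 67.0 CPM in Ezh2-deficient and 30.4 CPM in wildtype cells at day 7 (1.14) but at 22.6 and 41.3 CPM at day 14 (-0.87). Saa3, an acute-phase protein, had ratios of -0.74, 1.04 and -1.51 on the 3 days, from levels of 5.74 CPM in Ezh2-deficient and 2.78 CPM in wildtype cells at day 7. For these 2 genes the direction at day 7 was the opposite of that at day 14. Cxcl9 (1.80) and Il33 (2.04, from 1.14 and 0.255 CPM) completed the genes called.

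Of 28 genes of the FGF and IGF list 7 were called higher (25%, against 2.51% of all genes) and 0 lower. The median was 0.06, with 15 above 0 and 13 below. Igf1, the main local growth factor of cartilage and bone, measured 14.1, 252 and 528 CPM in Ezh2-deficient libraries at days 3, 7 and 14, against 7.98, 95.2 and 215 CPM in wildtype libraries (1.41, 1.35 to 1.46, at day 7). It was higher on each day and higher with time in both genotypes. The binding proteins Igfbp3 (61.3 and 20.7 CPM in Ezh2-deficient and wildtype cells at day 7, ratio 1.56) and Igfbp2 (85.5 and 38.6 CPM, 1.15), and the proteases Pappa2 (1.21) and Pappa (1.02), which cut such proteins and free IGF, were also called higher. With Spry1 (1.31), a brake on receptor signalling, and Fgf21, these were the 7 called. The receptors Fgfr3 (-0.30), Fgfr1 (0.29) and Igf1r (0.08) and the ligand Igf2 (-0.39) were not called.

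Some bone genes were called higher and some cartilage matrix genes lower in Ezh2-deficient cells. Of 34 genes of osteoblasts and mineralisation 7 were called higher (20.6%, against 2.51% of all genes) and 0 lower. Above 0 were 25 and below it 9, with medians of 0.41, 0.26 and 0.63 on the 3 days. Ibsp, bone sialoprotein, measured 56.1, 242 and 29943 CPM in Ezh2-deficient libraries on the 3 days, against 14.4, 40.4 and 8245 CPM in wildtype libraries (2.58, 2.50 to 2.67, at day 7). The Ezh2-deficient library was the higher on each day, and the day 7 ratio was the largest of the 3. Dmp1, a matrix protein of osteocytes, gave 1.13, 16.01 and 205 CPM in Ezh2-deficient libraries, against 0.303, 2.72 and 153 CPM in wildtype libraries (2.54, 2.24 to 2.88, at day 7, and 0.42 at day 14). Alpl, the phosphatase that lets mineral form, stood at 242 and 82.1 CPM at day 7 in Ezh2-deficient and wildtype cells (1.56, against 0.81 at day 3 and 0.90 at day 14). Bglap (1.23) and Bglap2 (1.79), which encode osteocalcin and whose near-identical copies can share reads, Ifitm5 (1.82) and Tmem119 (1.04) were the others called. The factors Sp7 (0.91) and Runx2 (0.16) and the matrix protein Spp1 (0.21) were not. Genes on the other side were Tnfrsf11b (-0.94), the osteoclast inhibitor osteoprotegerin, Phospho1 (-0.80), a phosphatase of matrix vesicles whose entry overlaps Abi3, Omd (-0.77) and Enpp1 (-0.69), which makes the mineral inhibitor pyrophosphate. Phospho1 alone of these had ratios above 0 on both other days, 0.64 at day 3 and 0.56 at day 14. Postn (0.97), Tnc (0.91) and Thy1 (0.97) of the 30 genes of fibroblasts stood close under the 2-fold line, where 0 were called. All 32 genes of that list with an entry summed to 48120 CPM in Ezh2-deficient and 42950 CPM in wildtype cells.

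Of 35 cartilage genes 3 were called lower (8.57%, against 1.68% of all genes) and 0 higher. Below 0 were 30, and the median was -0.12, -0.49 and -0.65 on the 3 days. Clec3a, a cartilage lectin, measured 472 CPM in Ezh2-deficient and 1052 CPM in wildtype cells at day 7 (-1.16), Matn3, a matrilin of the growth plate, 363 and 761 CPM (-1.07), and Ucma, a small secreted protein of upper growth-plate cells, 355 and 731 CPM (-1.04). For Ucma the gap widened to -2.59 at day 14. Acan, which encodes aggrecan, stood at 2877 CPM in Ezh2-deficient and 4816 CPM in wildtype cells at day 7 (-0.74), Col2a1 at 33546 and 47594 CPM (-0.50) and Sox9, the factor of chondrocyte identity, at 208 and 306 CPM (-0.55), where at day 3 the 3 ratios were -0.26, -0.02 and -0.07. Cilp (0.76), Chad (0.55), Matn4 (0.48), Comp (0.30) and Nkx3-2 (0.07) were the 5 above 0. Col10a1, the collagen of hypertrophic cells, whose entry overlaps Nt5dc1, measured 440, 211 and 1815 CPM in Ezh2-deficient libraries on the 3 days, against 368, 462 and 6133 CPM in wildtype libraries (-1.13, -1.17 to -1.10, at day 7). Its ratio was above 0 at day 3 (0.26). Mmp13, the collagenase of the same stage, gave 376, 1300.5 and 1386 CPM in Ezh2-deficient libraries, against 287, 656 and 1802 CPM in wildtype libraries. At day 7 it was on the edge of the 2-fold line (0.99, 0.96 to 1.01), and at day 14 the ratio was -0.38. Ihh (-0.81) and Col10a1 on one side and Dmp1, Mmp13 and Panx3 (0.62) on the other show that the 18 hypertrophy genes did not share a direction, with 10 above 0 and 8 below.

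Sfrp5, a secreted Wnt inhibitor of the joint surface zone, was lower in Ezh2-deficient cells on all 3 days. It measured 40.5, 23.7 and 5.66 CPM in Ezh2-deficient libraries, against 138, 77.7 and 21.9 CPM in wildtype libraries (-1.71, -1.82 to -1.61, at day 7). Other genes of the surface zone, Erg (-0.76), Dpt (-0.74) and Vit (-0.64), were not called, and 11 of the 14 were below 0. Of 31 Wnt genes 3 were called higher (9.68%, against 2.51% of all genes), the ligands Wnt10b (1.15) and Wnt16 (1.59) and the antagonist Dkk2 (1.15). Called lower were 2 (6.45%, against 1.68%), Sfrp5 and Lgr6 (-1.84), a receptor for R-spondins. Lgr6 was 0.32 at day 3 and 0.61 at day 14. In the BMP and TGF-beta list 0 of 38 were called, with Bmp4 at 0.92 and Bmp7 at -0.97. Tendon genes were split, with Tnmd (62.2 and 26.0 CPM in Ezh2-deficient and wildtype cells, 1.26), Thbs2 (521 and 203 CPM, 1.36) and Kera (2.06) called higher and Chodl (-1.28) lower of 11.

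The other genes at 5 CPM or more with the lowest ratios at day 7 were of varied kinds. Myrip, a linker of vesicles to myosin, measured 1.17 CPM in Ezh2-deficient and 6.33 CPM in wildtype cells at day 7 (-2.41, -2.93 to -1.97), and Mcoln3, a cation channel of endosomes, 1.27 and 6.72 CPM (-2.38, -2.87 to -1.96). Carboxypeptidase M (gene symbol Cpm), an enzyme that trims peptides at the cell surface, gave 21.8, 25.4 and 13.2 CPM in Ezh2-deficient libraries, against 55.1, 94.3 and 43.3 CPM in wildtype libraries, a ratio of -1.89 at day 7. Fxyd6, a regulator of the sodium pump, stood at 27.3, 33.3 and 14.5 CPM in Ezh2-deficient libraries and at 51.0, 105.6 and 42.2 CPM in wildtype libraries (-1.66). These 4 were lower on each of the 3 days. Klk10, a secreted peptidase, was level at day 3 (13.7 and 13.8 CPM) and at 5.72 CPM in Ezh2-deficient and 19.3 CPM in wildtype cells at day 7 (-1.75), and Foxa2, a forkhead factor of late chondrocytes, at 2.80 and 9.11 CPM (-1.69), from -0.19 at day 3. Scube2, which helps hedgehog proteins to leave cells, was at 7.37 and 24.6 CPM at day 7 (-1.74) and at 5.77 and 4.48 CPM at day 14 (0.36), so the day 14 difference had the other sign. Atp6v0d2 (-1.63), a proton pump subunit of osteoclasts, Fabp7 (-1.94), Mycl1 (-1.79), Pof1b (-1.83), Slc35f1 (-1.71), Smtnl2 (-1.91) and Wisp3 (-1.64, overlapping Tube1) were the others. Nnt, the mitochondrial transhydrogenase, measured 22.7 CPM in Ezh2-deficient and 54.9 CPM in wildtype cells at day 7 (-1.27), with like ratios at day 3 (-1.27) and day 14 (-1.44). Because the strain is given as a mix, the genotype and a strain difference at Nnt cannot be told apart.

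Cell-cycle genes lay on opposite sides of 0 at days 3 and 7. The 40 genes of mitosis and the spindle had medians of 0.32, -0.74 and -1.38 on the 3 days, and all 40 were below 0 at day 7, against 50.4% of all genes. With the ratios between -1.23 and -0.48, 2 were called lower at day 7 (5%, against 1.68% of all genes). At day 14 it was 38, against 3.32% of all genes. Nusap1, a spindle protein whose entry overlaps Oip5, measured 15.1, 27.5 and 13.3 CPM in Ezh2-deficient libraries, against 14.98, 64.4 and 43.9 CPM in wildtype libraries (-1.23, -1.33 to -1.12, at day 7). Cenpf, a kinetochore protein, gave 31.0, 68.5 and 30.9 CPM in Ezh2-deficient libraries, against 24.5, 138 and 102.9 CPM in wildtype libraries (-1.01, -1.08 to -0.94). Both genotypes had more of these RNAs at day 7 than at day 3, wildtype the more so, and the list summed to 988, 1964 and 845 CPM in Ezh2-deficient libraries and to 794, 3270 and 2189 CPM in wildtype libraries. The 40 genes of DNA replication had medians of 0.20, -0.47 and -0.72, with all 40 below 0 and 1 called lower at day 7 (Dscc1, -1.28). Among inhibitors of the cell cycle, Cdkn2a (13.01 CPM in Ezh2-deficient and 7.35 CPM in wildtype cells, 0.82) and Cdkn2b (29.9 and 17.0 CPM, 0.81), both known Polycomb targets, were the higher at day 7, and Cdkn1c (348 and 573 CPM, -0.72) was lower than wildtype at day 7 but higher at day 3 (0.68). None of the 7 was called.

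Many mitotic genes carry the cell-cycle genes homology region near their start, spelled TTTGAA, through which they are repressed in resting cells. The letters were found on either strand for 25 of 33 mitosis genes with a window (75.8%), against 14.1% of genes at 1 CPM or more. For the genes called lower at day 7, all at 1 CPM or more, the count was 34 of 150 (22.7%), against the same 14.1%. For the genes called higher it was 32 of 226 (14.2%). Of all 27025 genes with a window, at any level, 20.2% held the letters. The difference between these shares was not tested. The E2F words TTTCCCGC, TTTGGCGC, TTTCGCGC and TTTGCCGC were found for 13 of 32 replication genes (40.6%), against 4.65% of genes. The shares of these lists of known cell-cycle genes describe the lists and not day 7, and the use of the matches was not measured. The windows of Cenpf (chr1:189688037-189688336, minus strand) and Prc1 (chr7:80294201-80294500, plus strand; Prc1, a bundler of spindle microtubules, had a day 7 ratio of -0.92) are shown as the 2 listed genes with a match that stood farthest apart, and in both the match in capitals lies within a few bases of the start.
Cenpf: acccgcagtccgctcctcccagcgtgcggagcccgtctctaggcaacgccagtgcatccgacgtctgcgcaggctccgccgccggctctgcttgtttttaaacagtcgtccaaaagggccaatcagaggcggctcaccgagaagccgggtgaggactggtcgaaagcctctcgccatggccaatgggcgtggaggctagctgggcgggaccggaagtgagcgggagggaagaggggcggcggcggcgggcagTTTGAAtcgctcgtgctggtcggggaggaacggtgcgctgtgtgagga
Prc1: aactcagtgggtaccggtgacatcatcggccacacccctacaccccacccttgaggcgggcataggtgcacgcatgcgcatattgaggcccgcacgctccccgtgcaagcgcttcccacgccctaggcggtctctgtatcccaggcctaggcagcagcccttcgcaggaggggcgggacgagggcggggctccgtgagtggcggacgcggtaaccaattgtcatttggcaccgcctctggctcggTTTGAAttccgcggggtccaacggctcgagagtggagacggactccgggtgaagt

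**Figure D3:**
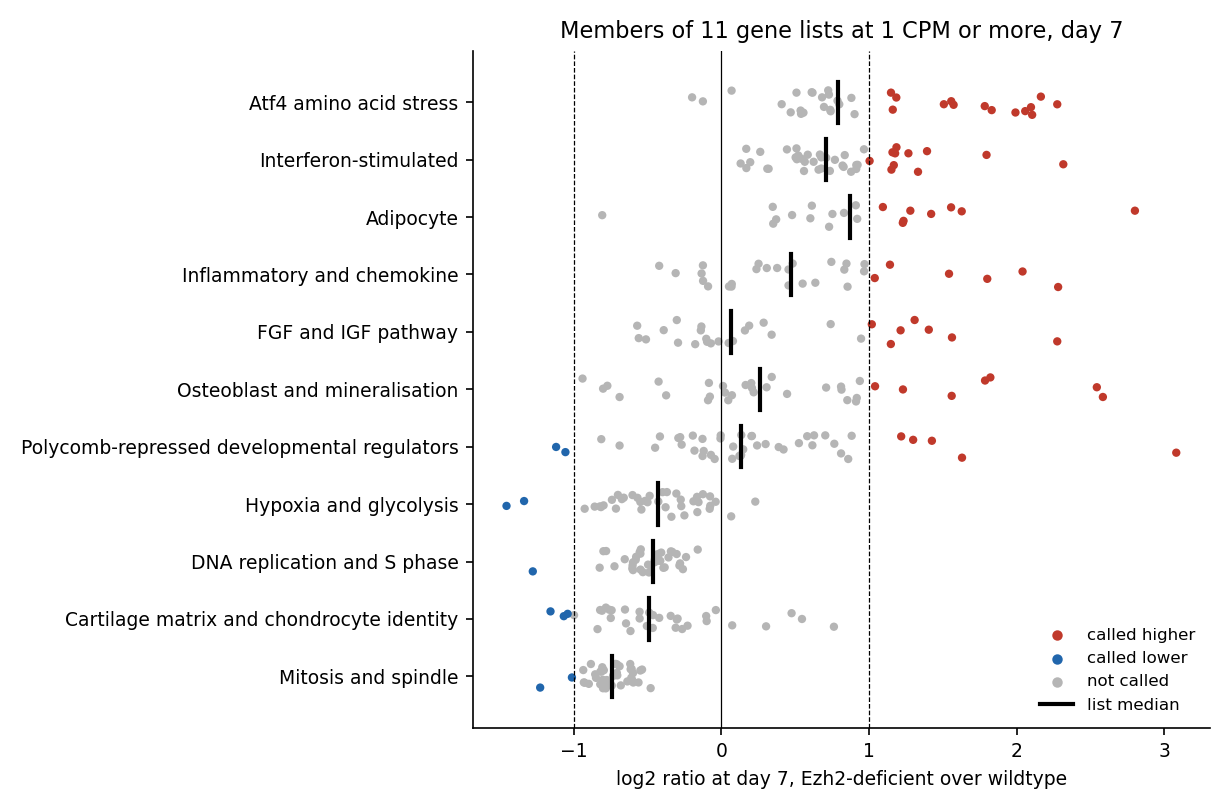
Day 7 log2 ratios of the measured members of 11 gene lists (1 point per gene at 1 CPM or more), with red for called higher, blue for called lower, grey for not called and a black bar for the list's median. The amino acid stress, interferon and adipocyte lists lie to the right of 0, with medians of 0.79, 0.71 and 0.87, and the hypoxia, replication, cartilage and mitosis lists to the left, with medians of -0.43, -0.47, -0.49 and -0.74.

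**Figure D4:**
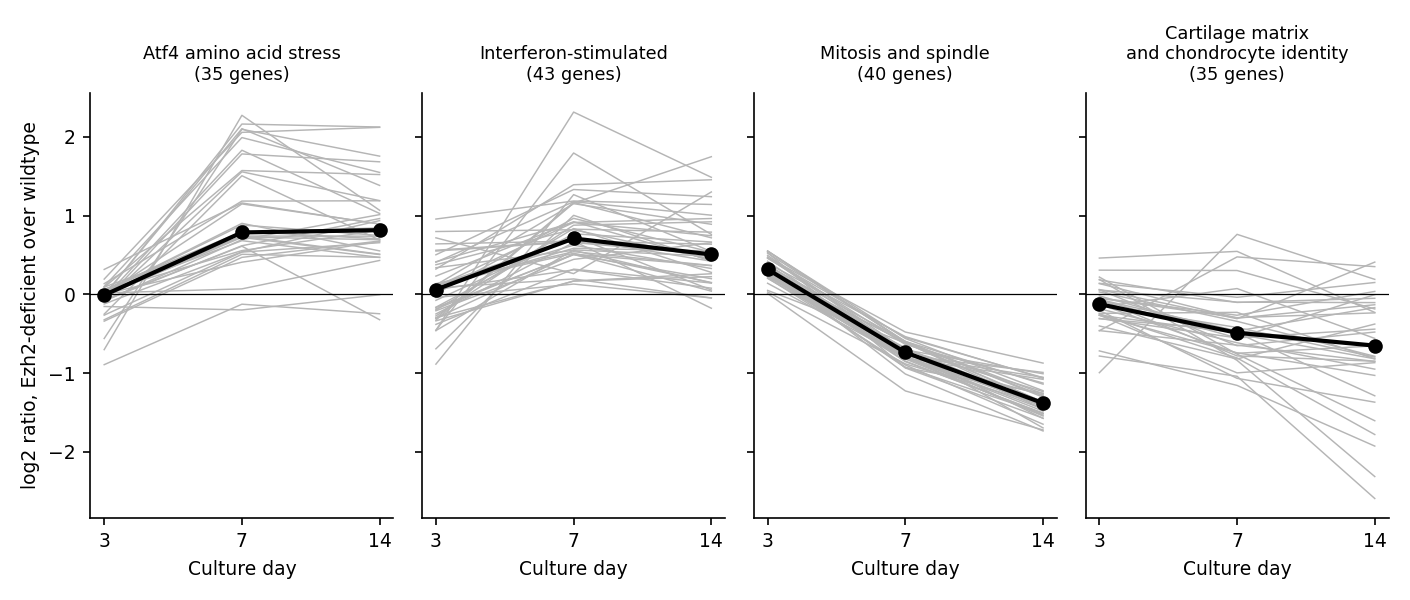
Log2 ratios of the members of 4 gene lists (grey lines, 1 per gene) and their median (black) at days 3, 7 and 14. The amino acid stress median moves to 0.79 by day 7 and stays near it, the interferon median is highest at day 7 (0.71), and the mitosis and cartilage medians are lower at each later day.

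Adipocyte genes stood above 0 and hypoxia genes below. Of 20 adipocyte genes 8 were called higher (40%, against 2.51% of all genes) and 0 lower at day 7. Called higher were 12 at day 3 and 3 at day 14. The median was 1.75, 0.87 and 0.75 on the 3 days, so the ratios were largest at day 3. Fabp4, a fatty acid carrier, measured 225 CPM in Ezh2-deficient and 96.0 CPM in wildtype cells at day 7 (1.23), and Gpd1, which makes glycerol phosphate, 150.3 and 56.1 CPM (1.42). Adipoq, the defining adipokine, differed less at day 7, at 41.2 and 32.3 CPM (0.35), than at day 3, at 11.6 and 1.58 CPM (2.85). Scd1, the desaturase of fatty acid synthesis, was the most abundant gene named here as called higher, at 2179 CPM in Ezh2-deficient and 978 CPM in wildtype cells (1.16), and Fasn, the fatty acid synthase, was just under the line (0.99). In the hypoxia and glycolysis list 37 of 39 genes were below 0 and 2 were called lower (5.13%, against 1.68% of all genes). The medians were -0.40, -0.43 and -0.32. Egln3, an oxygen sensor that Hif1 induces, gave 7.24, 10.6 and 35.6 CPM in Ezh2-deficient libraries, against 12.8, 29.2 and 57.2 CPM in wildtype libraries (-1.46, -1.63 to -1.29, at day 7). In 20 of the 39 the day 7 ratio was below 0 and farther from 0 than on both other days, against 15.1% of all genes.

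Developmental regulators that Polycomb typically represses gave calls in both directions. Of 45 such genes at 1 CPM or more, among 67 with an entry, 5 were called higher (11.1%, against 2.51% of all genes) and 2 lower (4.44%, against 1.68%), with medians of 0.41, 0.13 and 0.06 on the 3 days. Alx1, a homeobox gene of facial mesenchyme, measured 5.86, 1.91 and 0.912 CPM in Ezh2-deficient libraries, against 0.425, 0.199 and 0.076 CPM in wildtype libraries (3.08, 2.15 to 4.63, at day 7). It was low but higher on every day. Alx4 (1.63), Eya1 (33.5 and 13.6 CPM in Ezh2-deficient and wildtype cells), Isl1 (1.22) and Gata6 (1.43) were the others called higher, and Six2 (-1.12) and Lhx2 (-1.06) were called lower. Of 24 Hox genes 1 was called (4.17% lower, against 1.68% of all genes), Hoxa13 (-1.26, from 0.585 and 1.45 CPM). Dio3 (1.48), which inactivates thyroid hormone, and Slc38a4 (1.15), an amino acid carrier, were the imprinted genes called higher of 30, while Plagl1 (-0.82) and Rian (-0.58) were on the other side.

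Differences seen at day 7 were partly shared with the other days. Of the 338 genes called higher, 123 were also called higher at day 14 (36.4% of them and 35.3% of the 348 at day 14) and 67 at day 3 (19.8% and 28.2% of 238). Of all genes at 1 CPM or more on the day in question, 2.58% were called higher at day 14 and 1.81% at day 3. The higher calls of all 3 days shared 23 genes, out of 40 called higher at both day 3 and day 14. Of the 227 called lower, 85 were also called lower at day 14 (37.4% and 19% of 448) and 21 at day 3 (9.25% and 29.2% of 72). The shares called lower over all genes were 3.32% at day 14 and 0.548% at day 3.

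A stricter rule took genes called at day 7 whose ratio lay within 0.5 of 0 on both other days, which left 40 higher (0.297% of 13473) and 28 lower genes (0.208%). As the rule uses these ratios, their values describe the choice and support nothing. Brp44, an older symbol of the mitochondrial pyruvate carrier subunit Mpc2, measured 40.4, 73.5 and 27.2 CPM in Ezh2-deficient libraries on the 3 days, against 39.2, 31.8 and 27.7 CPM in wildtype libraries (1.21, 1.11 to 1.31, at day 7). The pair was within 0.05 of equal at days 3 and 14, and the day 7 gap came with a higher Ezh2-deficient level. Gpr98, a giant adhesion receptor of sensory cells, stood at 29.5, 6.68 and 1.17 CPM in Ezh2-deficient libraries and at 21.6, 1.305 and 1.48 CPM in wildtype libraries (2.33 at day 7). Slco2a1, the prostaglandin transporter, gave 12.3, 36.8 and 15.1 CPM in Ezh2-deficient libraries, against 8.89, 14.2 and 15.005 CPM in wildtype libraries (1.37). Adam19, a metalloprotease (1.32), Ggt5, which acts on glutathione and leukotriene C4 (1.29), Pcdh11x, a protocadherin (1.26), Cygb, the globin of fibroblasts (1.23), Lepr, the leptin receptor (1.19), Stk19 (1.15), Slc38a4 (1.15), Plekhg4 (1.03) and Steap1, a metalloreductase (1.02), were the others named, out of those at 5 CPM or more.

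Of the 28 lower genes, 10 reached 5 CPM, and these are named here. Smtnl2, a smoothelin-like protein, measured 2.18, 1.65 and 6.64 CPM in Ezh2-deficient libraries, against 2.82, 6.27 and 8.93 CPM in wildtype libraries (-1.91, -2.35 to -1.52, at day 7). Pla2g5, a secreted phospholipase whose entry overlaps Pla2g2a, gave 14.6, 15.6 and 10.5 CPM in Ezh2-deficient libraries, against 13.01, 32.5 and 11.1 CPM in wildtype libraries (-1.06). Here it was the wildtype library of day 7 that stood above the other 5. Sox11, a factor of embryonic mesenchyme, stood at 25.9, 5.19 and 1.09 CPM in Ezh2-deficient libraries and at 24.7, 11.2 and 1.41 CPM in wildtype libraries (-1.10), with lower levels at each later day in both. Dcaf12l1 (-1.21), Sh2d3c (-1.21), Rab27b (-1.20), Nhsl1 (-1.13), Fcgr3 (-1.05), Nebl (-1.05) and Tmtc1 (-1.04) were the other genes at 5 CPM or more. Among those under 5 CPM, and named after its values were seen, Edn2, which encodes endothelin 2, had a ratio of -2.31 from 0.280 CPM in Ezh2-deficient and 1.504 CPM in wildtype cells.

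**Figure D5:**
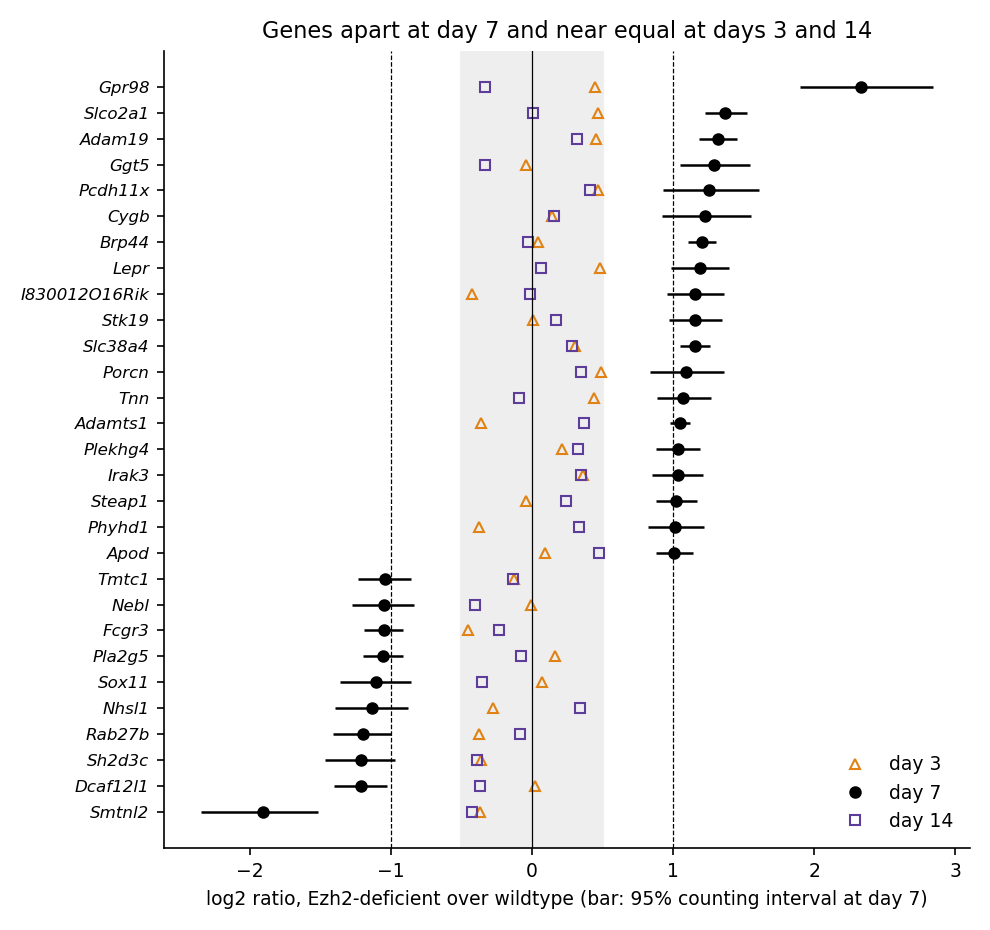
Log2 ratios at days 3 (triangles), 7 (black points with 95% counting intervals) and 14 (squares) for the 29 genes at 5 CPM or more that were called at day 7 and lay within 0.5 of 0 (grey band) on both other days. The 19 higher genes run from Apod (1.01) to Gpr98 (2.33) and the 10 lower ones from Smtnl2 (-1.91) to Tmtc1 (-1.04).

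Whether a gene's day 7 difference departed from the mean of its day 3 and day 14 differences was tested over 16280 genes with edgeR's quasi-likelihood test, with day and genotype in the model. The pairs of days 3 and 14 stand in for replicates, which leaves 1 residual degree of freedom. No gene passed at an adjusted p of 0.05 (0% called), with 248 at an unadjusted p under 0.05 (1.52%), 136 departing upward and 112 downward. DESeq2 called 0 genes (smallest adjusted p = 0.101) with 143 at an unadjusted p under 0.05 (0.878%), and limma-voom called 0 with 307 (1.89%). None of the 5 genes that ranked first by p passed; they were Lrrc32, Slc2a5, Phospho1, Brp44 and Cntnap3. Lrrc32, which tethers latent TGF-beta at the cell surface, measured 63.0, 47.7 and 21.2 CPM in Ezh2-deficient libraries, against 87.6, 22.6 and 33.2 CPM in wildtype libraries, ratios of -0.48, 1.08 and -0.65 (edgeR adjusted p = 1). It was the higher at day 7 and the lower on both other days. Slc2a5, a fructose carrier, stood at 35.7, 3.84 and 0.438 CPM in Ezh2-deficient libraries and at 42.9, 0.879 and 0.494 CPM in wildtype libraries (2.09 at day 7), and Cntnap3, a cell adhesion protein, at 21.3, 4.75 and 0.584 CPM and at 15.9, 0.738 and 0.380 CPM (2.64). Per list, the unadjusted p in edgeR's test was under 0.05 for 6 of 26 immediate early genes and 6 of 31 matrix protease genes. It was so for 5 of 30 inflammatory genes, 5 of 34 bone genes and 4 of 35 amino acid stress genes. The count was 3 of 11 tendon genes, 3 of 18 hypertrophy genes and 3 of 28 FGF and IGF genes. It was 2 of 43 interferon-stimulated genes, 2 of 39 hypoxia genes and 2 of 24 macrophage genes. Each remaining list had 0 or 1 such gene, with 0 of 35 cartilage genes, 0 of 20 adipocyte genes, 0 of 40 mitosis genes and 0 of 40 replication genes. The test names no gene as particular to day 7. A change of the genotype difference between days 3 and 14 counts as error in it, so it cannot show that no gene is. The tallies per list share this limit.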

How the data were processed

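RNA was measured in 6 libraries, 1 for each genotype and day. The authors deposited raw read counts per gene together with RPKM values on the mm10 build, made with CASAVA 1.9, TopHat 12.0.6 and HTSeq, per the submitters' processing notes. Whether counting used strand is not given in the sources used here. All deposited counts were even, so 2 counts were taken as 1 fragment, and intervals and floors are of fragments and cover counting error only. From the counts, CPM were computed with edgeR 4.0.16 in R 4.3.3 after TMM scaling over 16280 genes kept at a minimum count of 10. Log2 ratios use a prior count of 2, and intervals are exact conditional binomial at 95%. A called gene has at least 1 CPM in the higher library, 2-fold or more between libraries and an interval without 1. Of 23358 entries, 3717 had 0 counts in all libraries, and entries whose positions overlap are named where used, since their reads may mix.

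The departure of day 7 was tested with edgeR's quasi-likelihood test with Benjamini-Hochberg adjustment, with DESeq2 1.42.0 and limma 3.58.1 as alternatives, and the script was tested on simulated data. Named genes were Ezh2, the 15 at 5 CPM or more with the largest and the 15 with the smallest ratio (predicted and uncharacterised symbols left out), up to 12 a direction apart at day 7 only, genes called in opposite directions, the 5 with the smallest p, up to 6 members a list by size, and a fixed set. Other list members and the remaining called ones were named after their values were seen. The members and lists were chosen with earlier results of these data known. Promoter windows came from RefSeq's GRCm38.p6 annotation.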

Additional observations from a re-analysis of the deposited data

Results flagged for a closer look

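Several day 7 values lay opposite to another day. With 1 library a side, the difference between those 2 days was not tested. C1ql3, a secreted protein of the complement C1q family, had a log2 ratio of -1.04 at day 7 and 1.05 at day 3. It measured 4.06, 3.81 and 0.803 CPM in Ezh2-deficient libraries on the 3 days, against 1.94, 7.89 and 4.22 CPM in wildtype libraries. Saa3 had a ratio of 1.04 at day 7 and -1.51 at day 14. In edgeR's test of day 7 against the mean of both other days, the unadjusted p was 0.753 for C1ql3 and 0.0108 for Saa3, and the adjusted p was 1 for both. The mitosis and spindle list had a median of -0.738 at day 7 and 0.318 at day 3. The list of fibroblast genes had a median of 0.321 at day 7 and -0.346 at day 14. The list of keratinocyte and epithelial genes had a median of -0.278 at day 7, with 0.391 at day 3 and 0.274 at day 14, over 4 measured genes, and 0.279 at day 7 at a minimum of 5 CPM.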

How the results depend on the processing

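Counts of called genes depended on the thresholds. Without a minimum level 429 genes were called lower, and with a minimum of 5 CPM 182 were called higher and 98 lower. At 1.5-fold the counts were 810 higher and 825 lower, and at 3-fold 117 and 51. Genes apart at day 7 and near equal on both other days numbered 19 higher and 10 lower at 5 CPM, 10 and 6 with near equal taken as within 0.3, 76 and 50 within 0.7, 144 and 116 when near equal at day 3 only, and 82 and 54 at day 14 only. Without the genes of chromosomes X and Y, an alternative chosen after seeing the data, 324 higher and 222 lower genes were called, and 38 and 26 were apart at day 7 only. The departure test called 0 genes in each alternative, with 224 to 307 at an unadjusted p under 0.05, apart from DESeq2 with 143. Another scaling moved the median of all ratios by at most 0.0231. Of 222 list medians under alternatives 4 moved, those of tendon, smooth muscle, skeletal muscle and keratinocyte genes at a minimum of 5 CPM, by up to 0.557, and 3 changed sign there, to -0.176 for skeletal muscle and 0.279 for keratinocyte genes, and to just under 0 for neural and glial genes. Of 1320 gene ratios 21 moved and 0 reversed. The departure test pairs the genotypes by day through its day term. No paired analysis was possible within a day because each group holds 1 library, and no replicate could be left out.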

Other observations

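Immediate early genes, the first to respond to growth signals and to handling, gave 0 calls of 26 at day 7, and 18 were below 0, with medians of 0.20, -0.12 and 0.45 on the 3 days. Cyr61 (-0.47), Egr1 (-0.45) and Fos (-0.38), all response genes of this kind, were among the 6 with an unadjusted p under 0.05 in edgeR's test of the day 7 departure, where no gene passed after adjustment. Among matrix proteases, Adamts1, which cuts versican, measured 128 CPM in Ezh2-deficient and 61.7 CPM in wildtype cells at day 7 (1.05), and Mmp8, a collagenase of neutrophils, was called lower (-2.40). Adamts15 (0.94) and Adamts5 (0.88), which cut aggrecan, were just under the call. Tubb3, a tubulin of neurons, was the 1 gene called higher among 8 neural and glial genes (2.01), while S100b, which chondrocytes also express, stood at -0.98. Cnn1 (1.34) and Actg2 (1.25) of smooth muscle were called higher and Synpo2 (-1.07) lower among 12 such genes.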
